A study of Macaca mulatta with 51 samples.

Results

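The 28 genes described here code for enzymes that make cholesterol from acetyl-CoA, for the transcription factor SREBP2 and the proteins that control its processing, and for 2 proteins that carry or esterify sterols. They were taken by symbol from a written list, with no measured value in the rule, but chosen with earlier results of these data known. All 28 were present among the 16033 genes of the count table. By role, 8 act in the mevalonate pathway, 3 make squalene and lanosterol, 9 lead from lanosterol to cholesterol, 6 belong to SREBP2 and its control, and 2 act in sterol transport and esterification.

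RNA was sequenced from punch biopsies of subcutaneous adipose tissue (AT) and of gastrocnemius skeletal muscle (SM) of 10 diet-induced obese (DIO), non-diabetic rhesus macaques of both sexes, aged 11 to 22 years, the females ovariectomized and all on a high-fat diet. Every animal received native human FGF21 subcutaneously each day, with the dose raised stepwise to 1 mg/kg/day and held at 0.3 mg/kg/day in 1 animal. Biopsies were taken before the first dose (pre-treatment), after 12 weeks of dosing (post-treatment) and after 16 further weeks without FGF21 (washout). AT gave 10, 9 and 8 libraries at these time points from 10 animals, and SM gave 6, 8 and 7 from 8 animals, with total counts between 14455195 and 23940980 per library. No arm was left untreated, so FGF21, weight loss, the time elapsed and any drift between sampling days cannot be told apart. In a punch biopsy, fewer cells of a type and less RNA per cell cannot be told apart either. The labelled tissues held their markers: the summed level of 8 muscle fiber genes was 65.6 to 183 CPM (read counts scaled to the size of the library) in AT and 49277 to 259435 CPM in SM, and that of 5 adipocyte genes was 9843 to 34428 CPM in AT and 296 to 1813 CPM in SM.

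Cells build cholesterol from acetyl-CoA through mevalonate, isoprenoid diphosphates, squalene and lanosterol, in a chain of enzymes most of whose genes are activated by SREBP2. SREBP2 is made as a precursor in the endoplasmic reticulum membrane, where SCAP escorts it and the INSIG proteins hold the pair back when sterols are plentiful. When sterols fall, SCAP carries SREBP2 to the Golgi, the proteases MBTPS1 and MBTPS2 cut it, and the released part enters the nucleus. Adipocytes make rather little cholesterol compared with the liver, but store a large pool of free cholesterol in the membrane and lipid of their fat droplet.

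In AT, 11 of the 28 genes fell from pre-treatment to post-treatment, 10 of them enzymes of the pathway and the other SREBF2, and 2 rose. A gene was called where its fold change passed 0.26 in either direction on the log2 scale and its adjusted p stayed below 0.05. Both came from edgeR's quasi-likelihood test with time point and animal in the model, and p-values were adjusted by Benjamini-Hochberg across the 13367 genes that AT libraries allowed to be tested. Over all of those genes, 8.49% were called lower and 6.98% higher. A further 13 of the 28 were fitted lower without being called, so that 24 lay below zero and 4 above. Their median was -0.43 on the log2 scale, and that of all genes was 0.03. The count of 13 calls depended on single animals: it was 5 without animal 22130, 6 without 20275, 7 without 21189 or 26292 and 8 without 21866, while 23 or 24 of the 28 were fitted lower in each of those fits. The calls over all genes fell in the same fits, from 2068 to 805 without 22130, 998 without 20275, 1316 without 21189, 1513 without 26292 and 1390 without 21866, so the drop was not particular to the 28 genes. The library identifiers fall into 3 number series that the labels do not call batches. In the last series alone, which holds both time points of 6 animals, 6 of the 28 and 810 of 13393 genes were called, 24 of the 28 were fitted lower and the median was -0.35. Fold changes below are on the log2 scale with their SE, and levels are CPM after TMM scaling within the tissue, to be compared within a gene only, because transcript lengths were not used.

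**Figure D1:**
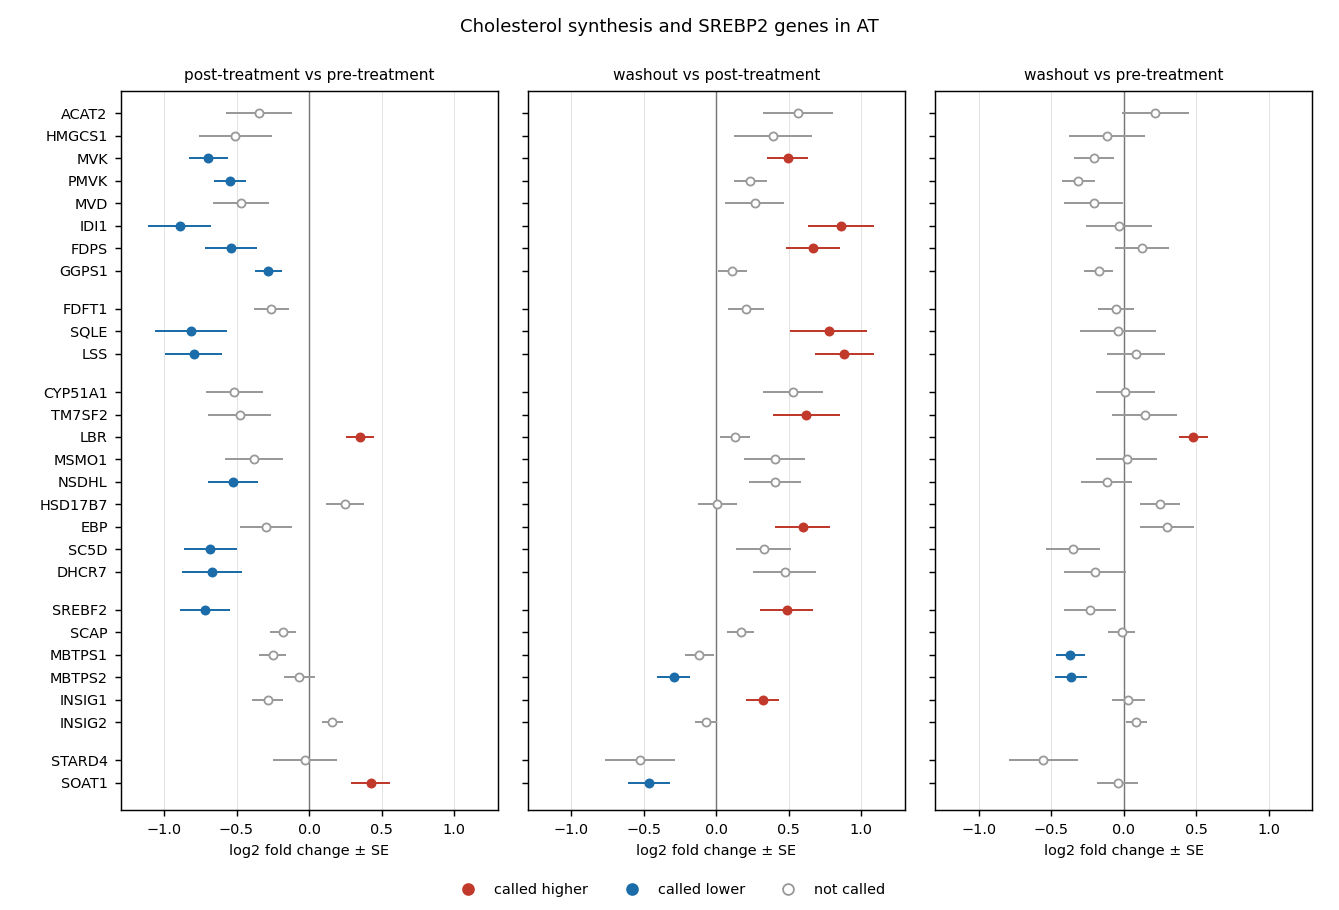
Log2 fold changes (x axis, ± SE) of the 28 genes in AT for the 3 comparisons of time points, from the quasi-likelihood fit with 10, 9 and 8 libraries, with genes grouped by role as in the text. Filled points were called and open points were not: 11 genes were called lower and 2 higher post-treatment, 9 higher and 2 lower from post-treatment to washout, and 1 higher and 2 lower at washout compared to pre-treatment.

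All 8 genes of the mevalonate pathway were fitted lower post-treatment, the median being -0.52 on the log2 scale, and 5 of them were called lower. MVK codes for mevalonate kinase. Its lowest, median and highest levels were 12.6, 18.2 and 25.0 CPM in the 10 pre-treatment libraries and 7.69, 11.3 and 16.5 CPM in the 9 post-treatment libraries. The ranges overlapped, but MVK was lower post-treatment in 9 of 9 animals with both libraries, by a log2 fold change of -0.70 ± 0.13 (adjusted p = 0.00426). PMVK, phosphomevalonate kinase, catalyses the step after it. Its levels were 68.5, 84.1 and 115 CPM pre-treatment and 38.3, 63.4 and 77.2 CPM post-treatment (lowest, median and highest), with a log2 fold change of -0.55 ± 0.11 (adjusted p = 0.00507). Here too the ranges overlapped and 9 of 9 animals had the lower level post-treatment.

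IDI1, the isopentenyl diphosphate isomerase, had the most negative fitted change of the 28 genes. Its lowest, median and highest levels were 46.8, 97.1 and 226 CPM pre-treatment and 32.4, 44.9 and 117 CPM post-treatment. The median of the post-treatment libraries lay below the lowest pre-treatment library, and the log2 fold change was -0.89 ± 0.22 (adjusted p = 0.0143). All 9 animals had less IDI1 post-treatment, but the within-animal change ranged from -2.14 in animal 22130 to -0.06 in animal 21866. FDPS, which makes farnesyl diphosphate, the branch point to sterols and to prenylated proteins, moved from 45.2, 51.8 and 103 CPM to 27.1, 36.4 and 122 CPM (lowest, median and highest). It was lower in 7 of 9 animals, by -0.54 ± 0.18 (adjusted p = 0.0475), and its highest level in either group was the post-treatment library of animal 20456. GGPS1, which extends farnesyl to geranylgeranyl diphosphate for protein prenylation, had the smallest called change, -0.28 ± 0.09 (adjusted p = 0.0491), from 75.8, 103 and 132 CPM pre-treatment to 65.8, 82.9 and 97.8 CPM post-treatment, with overlapping ranges. The calls of FDPS and GGPS1 were lost in 12 and 15 of 21 alternative settings, whereas those of MVK, PMVK and IDI1 were kept in all 21.

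The other 3 genes of the mevalonate pathway were fitted lower but not called. HMGCS1, the cytosolic HMG-CoA synthase at the entry of the pathway, had lowest, median and highest levels of 49.1, 75.02 and 156 CPM pre-treatment and 38.0, 50.7 and 141 CPM post-treatment, with a log2 fold change of -0.51 ± 0.25 (adjusted p = 0.161). It was lower in 7 of 9 animals, the within-animal change running from -1.58 in 26292 to 0.48 in 20261, and its SE was the largest among these 8 genes. MVD, mevalonate diphosphate decarboxylase, had a log2 fold change of -0.47 ± 0.20 (adjusted p = 0.0987), and ACAT2, the cytosolic thiolase that condenses acetyl-CoA, one of -0.35 ± 0.23 (adjusted p = 0.292).

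SQLE and LSS, which form squalene epoxide and close the sterol ring to give lanosterol, were both called lower. The lowest, median and highest levels of SQLE, the squalene epoxidase and a rate-limiting enzyme of the pathway, were 11.4, 19.2 and 75.1 CPM pre-treatment and 7.51, 9.11 and 52.2 CPM post-treatment. Animal 20456 held the highest level at both times, far above the second highest of 33.9 and 21.0 CPM, and the ranges overlapped. The post-treatment median of SQLE lay below the lowest pre-treatment library. SQLE was lower post-treatment in 9 of 9 animals, by -0.81 ± 0.25 (adjusted p = 0.0358). LSS, lanosterol synthase, had levels of 19.9, 39.1 and 60.5 CPM pre-treatment and 12.02, 21.5 and 35.8 CPM post-treatment and a log2 fold change of -0.79 ± 0.19 (adjusted p = 0.0145). It was lower in 7 of 9 animals, and the ranges overlapped. FDFT1, squalene synthase, the first enzyme given over to sterols alone, was fitted lower by -0.26 ± 0.12 (adjusted p = 0.131) and not called.

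Among the 9 genes that lead from lanosterol to cholesterol, SC5D, DHCR7 and NSDHL were called lower and LBR higher. SC5D, the sterol desaturase that forms 7-dehydrocholesterol, had lowest, median and highest levels of 433, 700.1 and 1039 CPM pre-treatment and 244, 376 and 587 CPM post-treatment. The post-treatment median lay below the lowest pre-treatment library, SC5D was lower in 9 of 9 animals, and the log2 fold change was -0.68 ± 0.18 (adjusted p = 0.0193). DHCR7, which turns 7-dehydrocholesterol into cholesterol, moved from 9.12, 14.4 and 35.0 CPM to 3.75, 11.1 and 20.6 CPM, a log2 fold change of -0.67 ± 0.21 (adjusted p = 0.0369). Its ranges overlapped, 7 of 9 animals had the lower level post-treatment, and the lowest library was that of 22130. NSDHL, which removes the methyl groups at carbon 4 together with MSMO1 and HSD17B7, had levels of 117, 165 and 261 CPM and 68.5, 128 and 197 CPM and a log2 fold change of -0.52 ± 0.17 (adjusted p = 0.0437). It was lower in 9 of 9 animals, from -1.84 in 22130 to -0.04 in 20261, with overlapping ranges. Of 21 alternative settings, 1 ended the call of LSS, 2 that of SC5D, 5 that of SQLE, 10 that of DHCR7 and 11 that of NSDHL.

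LBR codes for the lamin B receptor, a protein of the inner nuclear membrane that also has sterol reductase activity, the same reaction that TM7SF2 catalyses. Its levels were 41.2, 52.8 and 72.1 CPM pre-treatment and 53.6, 64.7 and 84.3 CPM post-treatment (lowest, median and highest), and the log2 fold change was 0.35 ± 0.10 (adjusted p = 0.022). It was higher post-treatment in 8 of 9 animals, with overlapping ranges, and 6 of 21 alternatives ended the call. TM7SF2 itself was fitted in the other direction, by -0.48 ± 0.22 (adjusted p = 0.129). The remaining enzymes of this stretch were not called: CYP51A1, the lanosterol demethylase, was fitted at -0.51 ± 0.19, MSMO1 at -0.38 ± 0.20, the isomerase EBP at -0.30 ± 0.18 and HSD17B7 at 0.25 ± 0.13, with adjusted p-values between 0.0736 and 0.254. HSD17B7, FDPS and CYP51A1 have copies elsewhere in the human genome. How reads shared with such copies were counted is not given in the sources used here, so the levels of these genes are less certain.

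SREBF2, the gene of SREBP2, was lower post-treatment in AT in 9 of 9 animals. Its lowest, median and highest levels were 127, 193 and 282 CPM pre-treatment and 73.1, 124 and 242 CPM post-treatment, and the log2 fold change was -0.72 ± 0.17 (adjusted p = 0.0135). The post-treatment median lay below the lowest pre-treatment library, the call was kept in all 21 alternatives, and the post-treatment library of 20456 lay within the pre-treatment range and above the next post-treatment library, at 148 CPM. Of the 5 other genes of this group, none was called. INSIG1, itself a strong SREBP2 target whose product retains SCAP, had levels of 76.0, 114 and 201 CPM pre-treatment and 61.4, 100.1 and 194 CPM post-treatment, and a log2 fold change of -0.29 ± 0.11 (adjusted p = 0.0719). It was lower in 8 of 9 animals, with a median within-animal change of -0.10, and the ranges overlapped. DESeq2 called INSIG1 lower. INSIG2, the second INSIG gene, was fitted higher at 0.16 ± 0.07. SCAP, MBTPS1 and MBTPS2 were fitted at -0.18 ± 0.09, -0.25 ± 0.09 and -0.07 ± 0.11, with adjusted p-values of 0.158, 0.0731 and 0.686. Only the messenger RNA of SREBP2 was measured, not its cleavage or its amount in the nucleus.

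SOAT1, the acyltransferase that stores cholesterol as its ester and is abundant in macrophages, rose. Its lowest, median and highest levels were 66.5, 93.9 and 133 CPM pre-treatment and 89.4, 118 and 180.0 CPM post-treatment, with a log2 fold change of 0.42 ± 0.14 (adjusted p = 0.0426). It was higher in 8 of 9 animals, from -0.12 in 23004 to 1.14 in 20275, and the ranges overlapped. The call was lost in 11 of 21 alternatives. STARD4, a carrier of cholesterol between membranes, had levels of 2.21, 3.21 and 5.75 CPM and 1.91, 3.03 and 6.28 CPM and a fitted change of -0.03 ± 0.22 (adjusted p = 0.946).

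**Figure D2:**
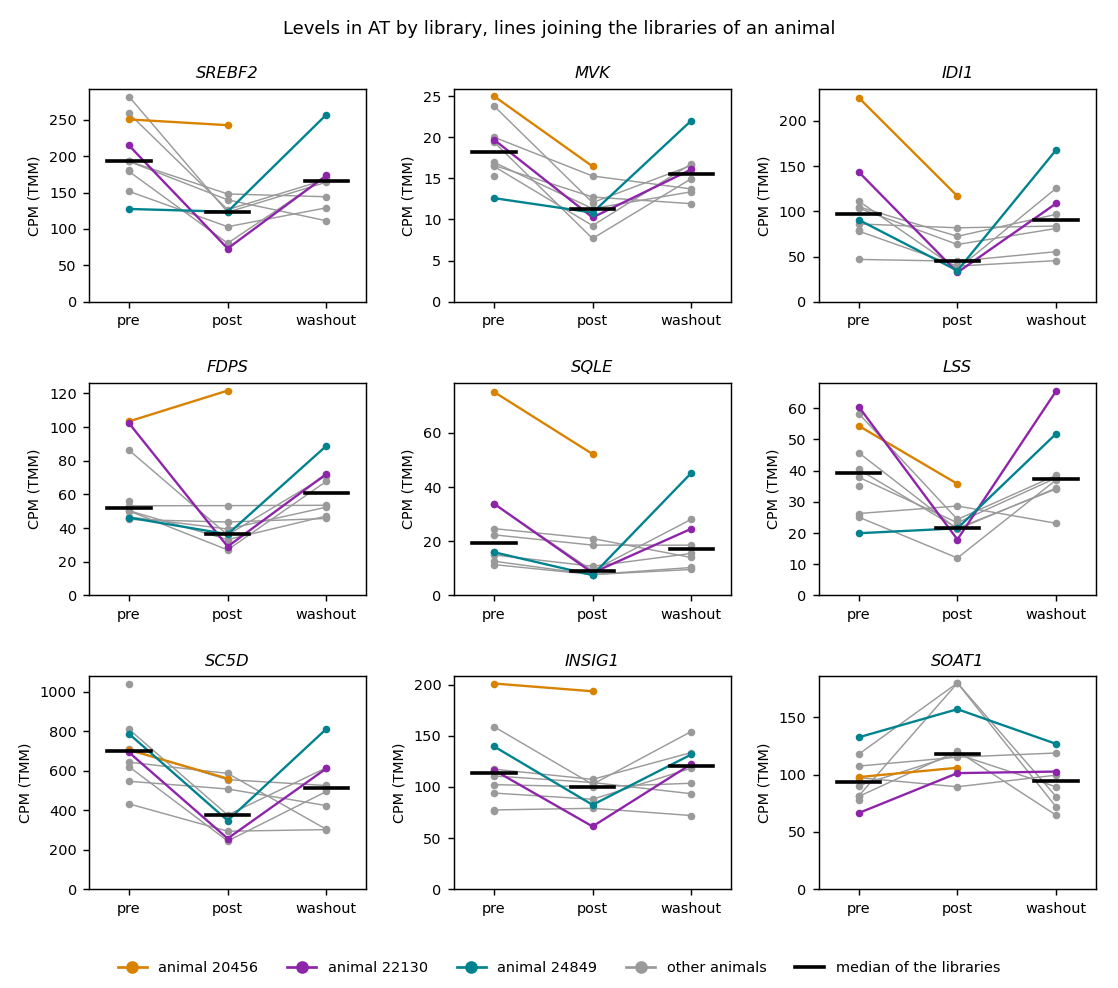
Levels of 9 of the genes in AT (y axis, CPM after TMM scaling) at pre-treatment, post-treatment and washout, with a point for each library, lines joining the libraries of an animal and a bar at the median of the group. The median of SREBF2 went from 193 to 124 and 166 CPM and that of IDI1 from 97.1 to 44.9 and 90.2 CPM, animal 20456 ran above the others in SQLE, IDI1 and INSIG1 and had no washout library, and SOAT1 moved the other way.

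Animals differed in how far the 28 genes moved. The median change over the 28 genes within an animal from pre-treatment to post-treatment was negative in all 9 animals with both AT libraries, and ranged from -1.17 in 22130 and -0.82 in 26292 to -0.07 in 24849 and -0.02 in 20261. In 26292, 26 of the 28 genes were lower post-treatment, in 22130 24 were, and in 20261 only 14. Animal 20456 had the highest library of SQLE, IDI1, HMGCS1 and INSIG1 at both time points, and its post-treatment FDPS exceeded its pre-treatment level.

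Markers of other cell types moved over the same step. In AT post-treatment, 10 of 10 macrophage markers were fitted higher than pre-treatment, with a median of 0.93, and 2 were called. The summed level of these markers was 579 to 2511 CPM pre-treatment and 959 to 5577 CPM post-treatment. Of the 5 adipocyte markers in the table, 5 were fitted lower, with a median of -0.35, and 2 were called, and their summed level was 16752 to 34428 CPM pre-treatment and 9843 to 30539 CPM post-treatment. Of 7 progenitor and fibroblast markers 2 were called higher, of 4 T cell markers 1 was, and none of 6 endothelial markers was called. No macrophage, adipocyte, progenitor, T cell or endothelial marker was at 0 in any AT library. In animal 22130 the adipocyte markers changed by a median of -1.38 and the macrophage markers by 2.28, and in 20275 by -2.26 and 2.98. In 26292, where the 28 genes had the second lowest median, these medians were -0.32 and 0.52, and in 21189 they were 0.09 and 1.06. The part of cell composition in the changes of the 28 genes was not tested. Without the post-treatment library of 20275 and the washout library of 21189, the AT libraries least like the rest, 8 of the 28 genes were called lower post-treatment and none higher, and 24 were fitted lower. Of all 13308 genes in that fit 1300 were called, 530 of them higher.

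**Figure D3:**
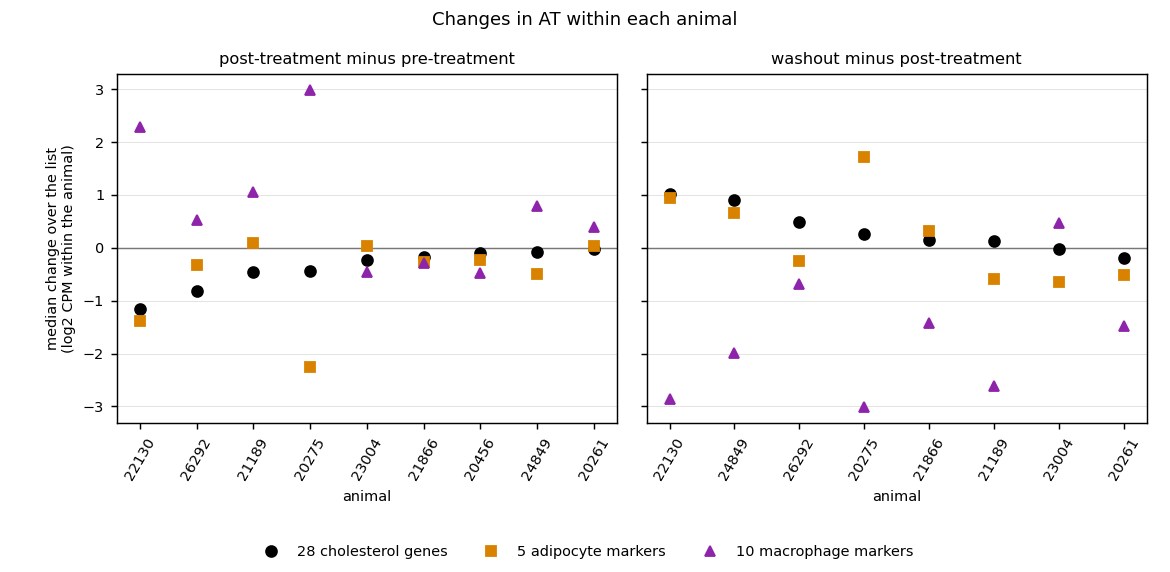
Median change within each animal (y axis, log2 CPM) over the 28 cholesterol genes (circles), 5 adipocyte markers (squares) and 10 macrophage markers (triangles) in AT, for 9 animals from pre-treatment to post-treatment and 8 from post-treatment to washout (x axis, animals ordered by the change of the 28 genes). The median of the 28 genes was -1.17 in 22130 and -0.02 in 20261 post-treatment, and 1.02 in 22130 and 0.90 in 24849 at washout.

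From post-treatment to washout, 9 of the 28 genes rose and 2 fell, against 17.6% of the 13367 genes called higher and 17.8% called lower. Altogether 23 of the 28 were fitted higher, and their median was 0.36 on the log2 scale. That median was 0.21 without animal 24849 and 0.23 with voomWithQualityWeights and limma, with 22 and 23 fitted higher. This comparison shares its post-treatment libraries with the one above, so a value that was low post-treatment by chance enters both with opposite signs. The washout group lacked libraries of 19832 and 20456. Animal 20456 entered this change only through its other time points. Animal 19832 had a pre-treatment library alone in AT, which with animal in the model carries no information on a change. Without 21189 or 22130 the calls were 6, and without 24849 they were 7, while over all genes they went from 4731 to 4008, 4111 and 4258. Only 3 animals had both libraries in the last identifier series. Within it the 2 calls were those of SOAT1 and MBTPS2, both lower, none of the 28 was called higher, 20 were fitted higher and the median was 0.09. Over all genes 2224 of 13393 were called there.

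In the mevalonate pathway, IDI1, FDPS and MVK were called higher and all 8 genes were fitted higher. IDI1 had lowest, median and highest levels of 45.5, 90.2 and 168 CPM at washout, and rose by 0.86 ± 0.23 (adjusted p = 0.00689). All 8 animals had more IDI1 at washout, from 0.03 in 20261 to 2.28 in 24849, although the ranges overlapped. FDPS, at 45.7, 60.7 and 88.9 CPM, rose by 0.66 ± 0.19 (adjusted p = 0.00993), again in 8 of 8 animals, but by only 0.0055 in 20261 and by 1.32 in 21189. MVK, at 11.9, 15.5 and 22.01 CPM, rose by 0.49 ± 0.14 (adjusted p = 0.0108) in 6 of 8 animals. HMGCS1, at 35.3, 63.7 and 200.3 CPM, was not called: its log2 fold change was 0.39 ± 0.27 (adjusted p = 0.263), with 4 of 8 animals higher.

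LSS and SQLE were called higher too. LSS had lowest, median and highest levels of 23.1, 37.4 and 65.5 CPM at washout and the largest fitted rise of the 28 genes, 0.88 ± 0.20 (adjusted p = 0.00284), in 7 of 8 animals. SQLE, at 9.59, 17.0 and 45.2 CPM, rose by 0.77 ± 0.27 (adjusted p = 0.0292) in 6 of 8 animals. Its change in 24849, 2.57, was the largest in any animal, and all 3 ranges of SQLE overlapped. TM7SF2 and EBP, neither of them called post-treatment, were called higher at washout. The levels of TM7SF2 were 5.88, 21.3 and 34.4 CPM post-treatment and 14.1, 25.6 and 58.3 CPM at washout, with a log2 fold change of 0.62 ± 0.23 (adjusted p = 0.0393). Those of EBP were 17.9, 21.1 and 51.3 CPM and 23.7, 30.6 and 67.0 CPM, with 0.60 ± 0.19 (adjusted p = 0.0193) and a rise in 7 of 8 animals. The ranges of both genes overlapped. Pre-treatment, TM7SF2 had stood at 17.3, 25.2 and 49.5 CPM and EBP at 15.7, 25.2 and 52.5 CPM. SC5D, DHCR7, NSDHL and PMVK, all called lower post-treatment, were fitted higher at 0.33 ± 0.19, 0.47 ± 0.22, 0.41 ± 0.18 and 0.23 ± 0.11 and not called. Their washout libraries ranged over 7.00 to 28.4 CPM for DHCR7 (median 13.3), 122 to 209 CPM for NSDHL (median 159) and 45.4 to 85.1 CPM for PMVK (median 66.1). GGPS1, fitted at 0.11 ± 0.10 and not called, ranged over 54.1 to 113 CPM (median 97.0).

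SREBF2, at 111, 166 and 257 CPM at washout, rose by 0.48 ± 0.18 (adjusted p = 0.0429) in 6 of 8 animals, with overlapping ranges. INSIG1, at 72.0, 120.3 and 154 CPM, rose by 0.32 ± 0.11 (adjusted p = 0.0324), in 6 of 8 animals. MBTPS2, the protease that makes the second cut of SREBP2 within the membrane, fell: its levels were 22.2, 25.5 and 29.5 CPM post-treatment and 15.8, 19.9 and 28.2 CPM at washout, and the log2 fold change was -0.29 ± 0.11 (adjusted p = 0.0467). The ranges of MBTPS2 overlapped and 5 of 8 animals had the lower level. SOAT1 fell, with a log2 fold change of -0.47 ± 0.14 (adjusted p = 0.0165), to 64.6, 94.4 and 127 CPM (lowest, median and highest), a median close to the 93.9 CPM of pre-treatment. Over the same step 10 of 10 macrophage markers were called lower, to a summed level of 385 to 2658 CPM at washout, 1 of 5 adipocyte markers was called higher, at a summed level of 10801 to 31288 CPM, 3 of 6 endothelial markers were called higher, 3 of 7 progenitor markers and 2 of 4 T cell markers lower, and 2 of 3 erythroid markers higher. Their part in the changes of the 28 genes was not tested. Of 21 alternatives, 1 ended the call of MVK and of LSS, 2 that of IDI1 and of FDPS, 5 that of SOAT1, 6 that of EBP, 7 that of SQLE, 9 that of TM7SF2 and of INSIG1, and 12 that of SREBF2 and of MBTPS2.

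At washout compared to pre-treatment, 1 of the 28 genes was called higher and 2 lower, against 12.5% and 7.96% of all genes, and the median was -0.04, with 17 fitted lower. That median rested on animal 24849: without it the median was -0.20 with 20 fitted lower, and within the last identifier series it was -0.32 with 22 fitted lower. With library size alone as the scaling, the median of all genes moved from -0.02 to 0.08, 16 of the 28 were fitted higher instead of 11, and only LBR was called, beside 2903 of all 13367 genes. LBR stayed above its pre-treatment level, at 57.3, 75.1 and 91.9 CPM (lowest, median and highest), by 0.48 ± 0.10 (adjusted p = 0.00178), in 7 of 8 animals and with overlapping ranges. MBTPS1, the protease of the first cut, was lower than pre-treatment in 8 of 8 animals: its levels were 245, 341 and 384 CPM pre-treatment and 209, 242 and 323 CPM at washout, and the log2 fold change was -0.37 ± 0.10 (adjusted p = 0.0112). MBTPS2, at 22.9, 26.6 and 31.99 CPM pre-treatment, was lower at washout by -0.36 ± 0.11 (adjusted p = 0.0252) in 7 of 8 animals. Of 21 alternatives, 1 ended the call of LBR, 2 that of MBTPS1 and 6 that of MBTPS2. None of the 11 genes called lower post-treatment was called at washout, but their fitted values ran from -0.35 for SC5D and -0.31 for PMVK to 0.13 for FDPS, and SC5D, at 302, 511 and 813 CPM, was still below pre-treatment in 7 of 8 animals. Animals parted again: the median change of the 28 genes from pre-treatment to washout was 0.80 in 24849, where 22 genes were higher, and between -0.29 and -0.05 in the other 7 animals. The median change of the adipocyte markers was 0.65 in 24849 and between -0.70 and -0.22 in the other 7.

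Before treatment, most of the 28 genes were expressed at higher levels in AT than in SM. In a fit over both tissues with animal in the model, 19 of 28 were called higher in AT, against 41.8% of 13662 genes, and 3 were called lower, against 35.3%. The median difference was 1.06 on the log2 scale, against 0.16 over all genes. With library size alone as the scaling, the median of all genes was 0.90, the counts were 25 higher and 1 lower, and the median of the 28 was 1.79. NSDHL differed most: its level, on a scale set over both tissues, was 91.4 to 206 CPM in AT and 5.61 to 16.9 CPM in SM, a log2 difference of 4.01 ± 0.27 (adjusted p = 9.17e-16). SOAT1 followed with 3.57 ± 0.35, SC5D with 3.11 ± 0.26, STARD4 with 3.05 ± 0.34, INSIG1 with 2.68 ± 0.27, DHCR7 with 2.57 ± 0.32, LSS with 2.55 ± 0.24, SQLE with 2.42 ± 0.47 and ACAT2 with 2.21 ± 0.28, all on the log2 scale with SE. The levels of these 9 genes did not overlap between the 10 AT and the 6 SM libraries, but this did not set them apart. Those of SREBF2, MVK, MSMO1, SCAP and MBTPS1, among others, did not overlap either. How many of all genes did not overlap was not counted. SREBF2, at 99.4 to 219 CPM in AT and 21.8 to 74.4 CPM in SM, differed by 1.53 ± 0.25 (adjusted p = 8.1e-07).

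A few genes ran the other way. FDFT1 was higher in SM, at 148 to 267 CPM against 43.4 to 101 CPM in AT, a log2 difference AT minus SM of -1.67 ± 0.18 (adjusted p = 1.08e-10), and the ranges did not overlap. IDI1 was at 77.2 to 319.7 CPM in SM and 36.4 to 179 CPM in AT, with -0.78 ± 0.25 (adjusted p = 0.00566), and overlapped. Its close relative IDI2 is known as a muscle gene and was not analysed here, and how reads that match both were counted is not given in the sources used here. INSIG2 differed by -0.66 ± 0.11 (adjusted p = 9.68e-07), but by 0.074 with library size alone, so that its direction depended on the scaling, and the call of IDI1 was lost under that scaling. HMGCS1, MVD, GGPS1, TM7SF2, HSD17B7 and MBTPS2 were not called, with fitted differences between -0.22 and 0.31.

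**Figure D4:**
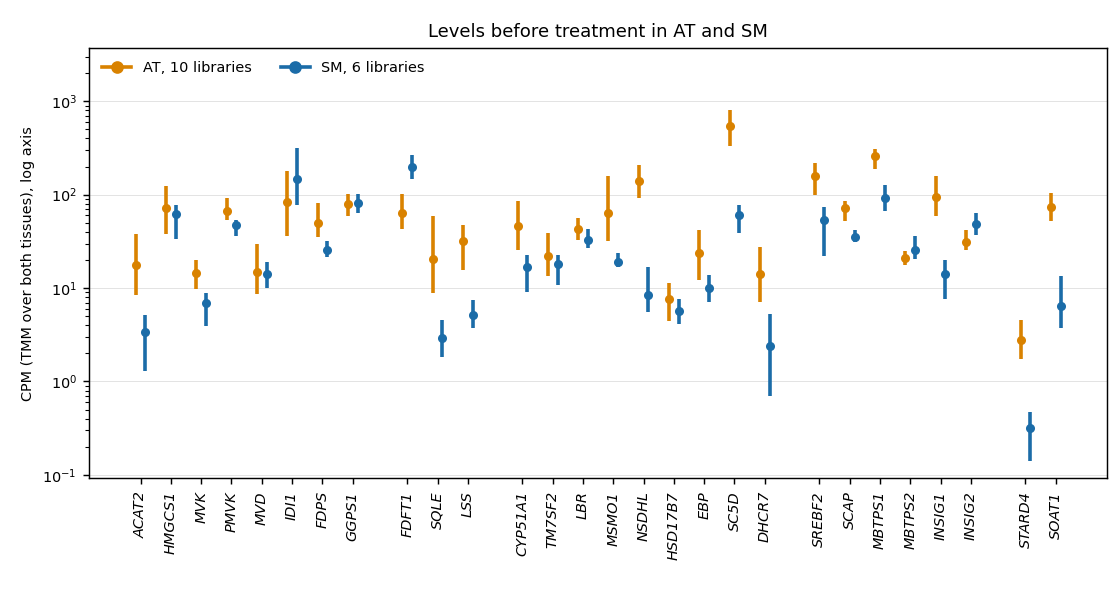
Levels of the 28 genes before treatment in AT (10 libraries) and SM (6 libraries): points are means, bars span the lowest to the highest library, and the y axis is CPM on a log scale, with TMM scaling over both tissues. NSDHL, SC5D and SOAT1 lie far higher in AT, FDFT1 higher in SM, and HMGCS1 and MVD at similar levels. Heights compare tissues within a gene, not genes.

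In SM, 27 of the 28 genes passed the filter on low counts and none was called in any comparison. STARD4 did not pass, with a highest level of 0.482 CPM. Post-treatment compared to pre-treatment, 0% of all 12617 genes were called either, the lowest adjusted p of any gene was 0.939, 410 of those genes and none of the 27 had an unadjusted p under 0.05, and the 27 were fitted between -0.34 and 0.32 with a median of -0.12. DESeq2 and voomWithQualityWeights with limma also called none of the 27. The lowest fitted value was that of SREBF2, at 16.9, 43.9 and 55.0 CPM pre-treatment and 16.6, 27.98 and 40.3 CPM post-treatment (lowest, median and highest), a log2 fold change of -0.34 ± 0.27 (adjusted p = 0.9996) with 3 of 6 animals lower. SM varied more between libraries than AT, with a biological coefficient of variation of 0.356 against 0.248. The fitted change with its SE was -0.13 ± 0.19 for IDI1 and 0.09 ± 0.47 for SQLE, the latter at 0.620 to 5.81 CPM in the post-treatment libraries.

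From post-treatment to washout in SM, 0.190% of all genes and none of the 27 were called. An unadjusted p under 0.05 was found for 3 of the 27 and for 2181 of all 12617 genes. The share among the 27 was thus below that of all genes. The 3 were SREBF2, MBTPS2 and HMGCS1, all fitted higher. DESeq2 called 1 of the 27, SREBF2, beside 359 of all 12617 genes. The 7 washout libraries of SREBF2, at 47.1, 56.4 and 69.3 CPM, all lay above the 8 post-treatment libraries, and SREBF2 was higher in 7 of 7 animals, but its log2 fold change of 0.84 ± 0.25 (adjusted p = 0.148) did not pass the adjustment. How many of all genes had ranges that did not overlap in this comparison was not counted. HMGCS1 moved by 0.43 ± 0.19 (adjusted p = 0.276), from 23.0, 46.5 and 51.6 CPM to 36.3, 59.9 and 68.1 CPM, and MBTPS2 by 0.34 ± 0.14 (adjusted p = 0.249). Library size alone moved the median of all genes in this comparison from -0.03 to -0.16 and called none of the 27. At washout compared to pre-treatment, 0.0634% of all genes and none of the 27 were called. The lowest adjusted p among the 27 was 0.373 for EBP, at -0.60 ± 0.28. None of the 27 had an unadjusted p under 0.05, beside 1691 of all 12617 genes. With the identifier series as a covariate, 4 of the 27 were called from post-treatment to washout, beside 2650 of all 12617 genes, and 2 at washout compared to pre-treatment, beside 1355 of all genes, so the share among the 27 was below that of all genes in both. Within the last series, 0 animals had both libraries for the first comparison and 2 for each of the others, too few for a value. In SM, the summed level of 7 progenitor and fibroblast markers ran from 222 to 16808 CPM in the post-treatment libraries and that of 8 muscle fiber markers from 49277 to 259435 CPM, with animal 21189 at the highest fibroblast and the lowest muscle value. Without the post-treatment libraries of 21189 and 21866, the SM libraries least like the rest, none of the 27 was called in any of the 3 comparisons.

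**Figure D5:**
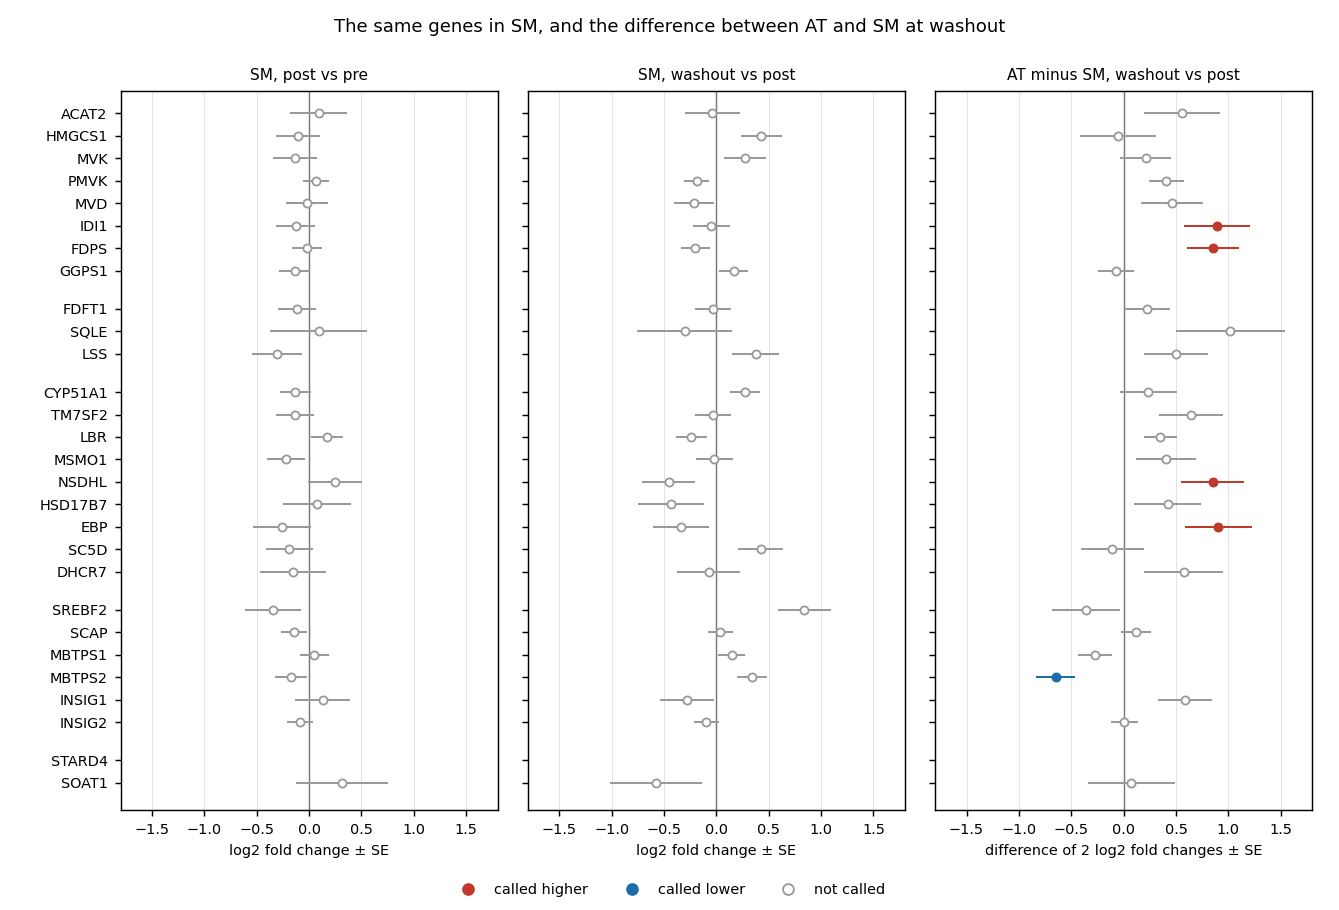
Log2 fold changes (x axis, ± SE) in SM of the 27 genes tested there, for post-treatment against pre-treatment (left) and washout against post-treatment (middle), and the difference between AT and SM in the change from post-treatment to washout (right), with genes grouped by role. No gene was called in SM, SREBF2 had the highest fitted value at washout, 0.84, and 4 differences were called above zero (IDI1, FDPS, NSDHL and EBP) and 1 below (MBTPS2).

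The change from pre-treatment to post-treatment was not shown to differ between AT and SM for any of the 27 genes tested in both, although 13 of the genes passed the threshold in AT and none in SM. The difference itself was tested as an interaction over 12322 genes, of which 0.0487% were called. Its lowest adjusted p among the 27 was 0.122, for PMVK with a difference of -0.67 ± 0.17. Of the 27 differences 22 were below zero, against 51.0% over all genes. An unadjusted p under 0.05 was found for 6 of the 27 and for 1306 of the 12322 genes. DESeq2 was not run for this difference. From post-treatment to washout, 5 of the 27 differed, against 22.7% of all genes, a share no higher than the background. The difference, AT minus SM, was 0.89 ± 0.31 (adjusted p = 0.0385) for IDI1, 0.85 ± 0.25 (adjusted p = 0.0145) for FDPS, 0.85 ± 0.30 (adjusted p = 0.0395) for NSDHL and 0.90 ± 0.32 (adjusted p = 0.0426) for EBP. These 4 genes were fitted above zero in AT and below zero in SM, where the values were -0.05 ± 0.18 for IDI1, -0.20 ± 0.14 for FDPS, -0.45 ± 0.25 for NSDHL and -0.34 ± 0.27 for EBP and none was called, and NSDHL was called in neither tissue. For MBTPS2 the difference was -0.65 ± 0.18 (adjusted p = 0.0106), with a fall in AT and a value of 0.34 ± 0.14 in SM that was not called. For SREBF2 the difference was -0.36 ± 0.32 (adjusted p = 0.452): it was fitted higher at washout in both tissues. From pre-treatment to washout, 3 of the 27 differed, against 17.5% of all genes: LBR by 0.49 ± 0.17 (adjusted p = 0.041), MBTPS1 by -0.63 ± 0.17 (adjusted p = 0.00871) and MBTPS2 by -0.60 ± 0.19 (adjusted p = 0.0244). These differences share the post-treatment or washout libraries with the comparisons within AT. With library size alone as the scaling, the median of all genes shifted to 0.25 and 0.23 in these 2 comparisons, from 0.03 and -0.01, and the calls of MBTPS2 in both comparisons and of MBTPS1 were lost. The counts changed with single animals, as did the calls over all genes, which without 1 animal were 1901 to 2799 for the first comparison and 1429 to 2363 for the second. From post-treatment to washout the 5 calls became 1 without 21189, 2 without 20275, 23004 or 24849 and 3 without 19832 or 21866, and from pre-treatment to washout the 3 calls became 1 without 19832, 20275 or 21866.

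Lists of neighbouring genes were counted in AT against the same shares of all genes, 8.49% called lower and 6.98% higher post-treatment, then 17.8% lower and 17.6% higher from post-treatment to washout. Of 10 other genes of cholesterol synthesis and SREBP2 targets, 3 were called lower and none higher post-treatment, and 2 were called higher and 1 lower from post-treatment to washout. Of 15 genes of fatty acid synthesis and desaturation, which the related factor SREBP1 activates, 8 were called lower and none higher post-treatment, with all 15 fitted lower and a median of -0.81, and 12 were called higher and none lower from post-treatment to washout. A list of 17 genes covered sterol sensing, degradation of the enzymes in response, and transcription factors such as NFYA. Of these, 2 were called lower post-treatment and 6, NFYA among them, lower at washout compared to post-treatment, with none higher in either. In the branch of the mevalonate pathway to dolichol, ubiquinone and protein prenylation, 2 of 14 genes were called lower and none higher post-treatment, and 3 were called in each direction at the later step. Of 12 genes of oxysterols and of the sterol-activated receptor LXR, 4 were called higher and 1 lower post-treatment, then 1 higher and 6 lower. Of 19 genes of sterol uptake and transport between compartments, 3 were called higher and 1 lower post-treatment, then 2 higher and 5 lower. Several of these counts lie near the shares of all genes, among them the lower calls in sterol sensing and in the prenylation branch post-treatment. In SM none of the genes of these 6 lists was called in either step.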

How the data were processed

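RNA was sequenced from stranded mRNA libraries. The authors aligned paired reads to the MacaM genome with STAR. They deposited gene-level raw counts, which were found for 48 of 51 labelled samples. Animals and time points come from the labels, and 3 SM samples were not analysed here. Dropping 70 repeat entries left 16033 genes. Within each tissue, genes reaching 0.5 CPM in 10% or more of the libraries went into edgeR 4.0.16 (TMM, robust quasi-likelihood F test, two-sided, R 4.3.3), log2 CPM used a prior count of 2, and the scripts were tested on simulated counts. The study itself used voomWithQualityWeights and limma, which is here an alternative (limma 3.58.1), as is DESeq2 1.42.0. Python 3.11.15, pandas 2.3.3, NumPy 2.4.6 and matplotlib 3.10.9 were also used. The animal in the model is the paired design: libraries of the same animal had a median correlation of deviations of 0.352 in AT (25 pairs) and 0.279 in SM (19 pairs), against -0.0354 and -0.0464 between animals. No 2 libraries were identical.

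The 28 genes, the lists and the tests were chosen with earlier results of these data known. All 28 genes are accounted for by role. Those called in AT post-treatment or at washout compared to post-treatment, and INSIG1, SREBF2, HMGCS1 and SQLE, are given with their levels in each AT group, and other genes are counted by list. Some genes of the pathway are not reported here. Positions and sequences are not printed, because no annotation of the build was used.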

Additional observations from a re-analysis of the deposited data

Results flagged for a closer look

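In 21 of 165 groups of libraries tested, 1 library stood apart from its group in the level of 1 of the genes, by Dixon's test at the 95% level. For independent, normally distributed values chance alone does this in about 1 in 20 groups. The test was run on CPM without a log transform and on genes that share libraries. That rate therefore need not hold here, and 21 is not shown to exceed chance. The AT libraries of animal 20456 account for 10 of the 21. Its post-treatment library held 31.4 CPM of ACAT2, 122 CPM of FDPS, 112 CPM of FDFT1, 52.2 CPM of SQLE, 86.1 CPM of CYP51A1, 242 CPM of SREBF2 and 194 CPM of INSIG1, and its pre-treatment library held 75.1 CPM of SQLE, 49.5 CPM of TM7SF2 and 199.5 CPM of MSMO1, each the highest of its group. These libraries also had the highest summed adipocyte markers of their groups, 34428 CPM pre-treatment and 30539 CPM post-treatment. The part of that in the levels was not tested. Without this animal the count of calls post-treatment in AT was 13, as with it, but the call of DHCR7 was lost, so the genes called were not all the same. At washout in AT, ACAT2 was high in 22130 (68.6 CPM) and SREBF2 in 24849 (257 CPM).

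In SM the washout library of 22130 was high in ACAT2 (4.70 CPM), SQLE (3.22 CPM) and SOAT1 (7.82 CPM) and low in HMGCS1 (36.3 CPM), and had the highest macrophage marker sum of its group, 275 CPM. FDFT1 was high in 19832 at washout (209 CPM) and MVD in 21189 post-treatment (14.8 CPM). Pre-treatment in SM, animal 23004 was high in IDI1 (236 CPM) and low in PMVK (26.6 CPM), and 24849 was high in NSDHL (12.2 CPM).

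The change over time differed between AT and SM, by the interaction test of edgeR adjusted over 12322 genes, for 8 values, 5 of 27 from post-treatment to washout and 3 of 27 from pre-treatment to washout. Over all genes 22.7% and 17.5% differed, so these counts are no higher than the background. From post-treatment to washout the difference AT minus SM on the log2 scale was 0.89 for IDI1, 0.85 for FDPS, 0.85 for NSDHL, 0.90 for EBP and -0.65 for MBTPS2, and from pre-treatment to washout it was 0.49 for LBR, -0.63 for MBTPS1 and -0.60 for MBTPS2. The washout libraries of SM share few identifier series with the post-treatment ones: 2 of 7 animals had both in the last series.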

How the results depend on the processing

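Of 848 alternative values of 61 single-gene results, 653 kept the direction and the side of the threshold, 189 lost the call, 4 gained one and 2 changed sign: HMGCS1 from post-treatment to washout in AT was -0.13 within the last identifier series, where 3 animals have both libraries, and the AT minus SM level of INSIG2 was 0.074 with library size alone. MVK, PMVK, IDI1 and SREBF2 kept their post-treatment calls in AT in all 21 alternatives. The count of calls was less stable. Post-treatment in AT (13) it was 7 with no replicate block, that is without animal in the paired model, 6 in the last series, 8 without the 2 AT libraries least like the rest, and 5 to 13 with each animal left out in turn. Over all genes the calls were 1420 of 13367 with no block, 810 of 13393 in the last series and 1300 of 13308 without the 2 libraries. From post-treatment to washout in AT (11) the count among the members was 3 with no replicate block, 5 with only the 2 time points compared, 2 in the last series and 6 to 12 with an animal left out. Over all genes 3965 of 13367 were called with no block, 3729 of 13436 with 2 time points and 2224 of 13393 in the last series. The shares among the members were below these. At washout compared to pre-treatment (3) the count among the members was 1 with library size alone, 5 with voomWithQualityWeights, 5 with only the 2 time points, 6 with the identifier series as a covariate, 1 in the last series and 2 to 4 with an animal left out. Of all 13367 genes, library size alone called 2903, voomWithQualityWeights 3685 and the series covariate 3282. The 2 time points gave 3379 of 13447 and the last series 1125 of 13393. Here too the shares among the members were below those of all genes. In SM, where the main count was 0, the count among the members was 1 with DESeq2, 1 with no replicate block and 4 with the series as a covariate from post-treatment to washout, 2 with that covariate from pre-treatment to washout, and 0 with any animal left out. From post-treatment to washout DESeq2 called 359 of all 12617 genes in SM, and the fit with no block 224. For the AT minus SM difference from post-treatment to washout (5) the count among the members was 2 with no replicate block, beside 2734 of all 12322 genes, 8 with the series covariate and 1 to 5 with an animal left out. From pre-treatment to washout (3) it was 10 with the series covariate and 1 to 4 with an animal left out. With the series covariate the calls over all genes also rose, to 2650 and 1355 of 12617 in SM and to 4143 and 3833 of 12322 for the 2 differences, so these counts of members are near or below the background. The causes were not tested. The level difference gave 22 to 26 calls, and the other 2 comparisons none throughout. The last series, the 2 left-out libraries of each tissue and edgeR's earlier quasi-likelihood method were added after the data were seen, and what the identifier series stand for is unknown. At these depths STARD4 in SM stayed below the filter on low counts and was not tested.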
